A study of Arabidopsis thaliana with 18 samples.

Results

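Wild-type Arabidopsis seedlings (Columbia) that had received 24 h of far-red light were compared with wild-type seedlings harvested from darkness, on 3 Affymetrix arrays each, replicates A, B and C. These are 6 of the 18 arrays of a study that also measured a far-red treatment of 1 h with a fluence rate of 0.5 µmol/m2/s and the pif4pif5 double mutant, which lacks the transcription factors PIF4 and PIF5, each again with 3 arrays a group. Members were every probe set that is not an Affymetrix control, 22746 of the 22810 in the table. Of these, 13513 named 1 gene, 503 named several and 8730 named none in the probe table used here.

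All seeds spent 3 days in the cold and dark, and a red light treatment of 3 h (50 µmol/m2/s) then started germination. Seedlings of every group then grew for 3 days in darkness. The dark group was harvested at that point, and the far-red group after 24 h more, under far-red light at 5 µmol/m2/s. Light, its duration, its fluence rate and seedling age therefore differed together, and no dark group of the older age was included. Whole seedlings were extracted, so fewer cells of a type and less RNA per cell cannot be told apart. Nothing in the labels says that replicates came from separate cultures, so the p-values reflect variation among samples that could be purely technical.

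A seedling that germinates in darkness elongates its hypocotyl and keeps its cotyledons closed and its plastids undeveloped. Far-red light is perceived by phytochrome A, which acts in the nucleus against growth-promoting PIF transcription factors and starts the change to the light-grown form. Far-red light alone drives little conversion of protochlorophyllide, so seedlings under it switch on nuclear genes for photosynthesis without greening as they do in white light.

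Dark arrays B and C stood apart from the others. The median log2 signal was 5.73, 5.60 and 6.16 on dark arrays A, B and C and 5.84, 5.68 and 5.67 on the 24 h arrays. The bacterial control probe sets averaged 3.12, 3.37 and 3.67 on the dark arrays. Weights estimated from the residuals were 0.742, 0.323 and 0.146 for dark arrays A, B and C. The correlation between replicates was 0.967 to 0.982 in the dark group and 0.988 to 0.992 in the 24 h group. The difference between the 3′ and 5′ actin probe sets, a sign of RNA integrity, was 1.74 to 2.31 over the 18 arrays. A call means a Benjamini-Hochberg adjusted p under 0.05 in limma, over all 22746 probe sets. A call is termed stable here when it kept its direction and its adjusted p under 0.05 after quantile normalization, after a shift of all arrays to 1 median, and without each of the 6 arrays in turn. This definition was chosen after the data had been seen.

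After 24 h of far-red light 1018 probe sets were higher and 1541 lower than in darkness, together 11.3% of those tested, with 4.48% higher and 6.77% lower. The median difference over all probe sets was -0.12 on the log2 scale. The 3 arrays of one group lay wholly above the 3 of the other for 19.7% of all probe sets. The 2 directions differed in size. Among calls of under 2-fold, 514 were higher and 1258 lower. Among the 787 calls of at least 2-fold, 504 were higher and 283 lower, and among the 128 of at least 4-fold, 101 were higher and 27 lower. The median fold was 1.98 for the rises and 1.62 for the falls.

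Stable calls numbered 1216, which was 5.35% of the probe sets tested, with 690 higher and 526 lower. All 101 rises of at least 4-fold and 26 of the 27 falls of that size were stable. Of the calls under 2-fold, 214 rises and 296 falls were. The excess of falls over rises in the full count therefore lay among small changes, and most of those did not hold when arrays were rescaled or left out. The balance moved either way with the dark array left out. Without dark array C there were 3109 calls, 1855 of them higher. Without dark array A there were 3814, 910 of them higher, and without dark array B 2469, 834 of them higher. With dark arrays B and C both left out, the median difference over all probe sets was 0.05. Dim probe sets had few calls, and a smaller share of those was higher. Of 8885 with a mean under 4.78, the 95th percentile of the bacterial controls, 76 were higher and 280 lower. These 356 calls were 21.3% higher, beside 39.8% of all calls, and 11.3% of all probe sets tested were called.

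**Figure D1:**
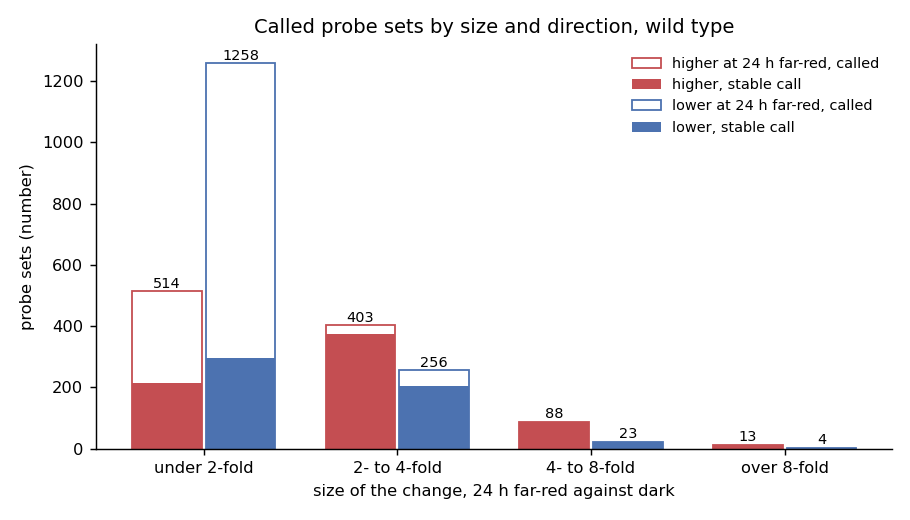
Number of called probe sets in wild type (vertical axis) by size of the change between 24 h far-red light and darkness, with open bars for all calls and filled bars for stable calls. Falls outnumber rises only under 2-fold (1258 against 514), and above 4-fold nearly every call is stable.

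Among the probe sets naming 1 gene, 497 (3.68%) were higher and 811 (6%) lower, and most had no gene symbol. Of the genes measured, 1535 carried a symbol other than their locus tag, 73 of them called higher and 128 lower, and 53 and 52 stable. The largest rise of a probe set naming 1 gene was that of AT5G48490. It read 5.32, 5.71 and 5.89 in darkness and between 9.57 and 10.36 after 24 h. Every far-red array lay above every dark one, and the change was 20.2-fold (log2 4.34 ± 0.31 SE, adjusted p = 6.72e-08). The largest fitted fall was that of AT2G34020, at 7.77, 7.76 and 7.51 in darkness and 3.79, 4.15 and 3.31 after 24 h. It went from a level well above the controls to one under their 95th percentile on every array, so the fold is a bound: measured against that percentile it was at least 7.47-fold lower (fitted log2 difference -3.93 ± 0.18, adjusted p = 4.42e-10). Across all calls, 36 probe sets crossed that percentile upward on every array and 55 crossed it downward.

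AT3G21670, listed in the reference table also as NPF6.4, a member of the nitrate and peptide transporter family, read 5.00, 5.12 and 5.77 in darkness and 7.85, 7.65 and 8.08 after 24 h. The rise was 5.92-fold (log2 2.56 ± 0.25, adjusted p = 1.7e-06). Its level after 1 h of far-red light was 7.33 ± 0.17 (SD). The 1 h and 24 h groups differed in fluence rate and age as well as in duration, so their levels are set side by side and do not form a time course. For AT5G48490 the 1 h level was 6.23 ± 0.50.

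Several genes of the photosynthetic membrane were higher. Counts of the gene lists from here on stand beside 4.48% higher and 6.77% lower over all probe sets. Of 6 genes annotated to the thylakoid lumen or membrane 4 were higher and 1 lower, with differences up to 1.68. The lower one was TAAC, an ATP/ADP carrier of the thylakoid (-1.10 ± 0.18). CaS and PSBW, described next, are not among these 6. CaS, a calcium-sensing protein of the thylakoid, read 6.89, 7.19 and 6.96 in darkness and 9.89, 9.77 and 9.07 after 24 h. The groups lay more than 1 log2 unit apart and the rise was 5.92-fold (2.57 ± 0.30, adjusted p = 1.27e-05). TROL, which tethers ferredoxin-NADP reductase to the thylakoid, went from 8.37, 8.68 and 8.58 to 10.19, 10.05 and 9.90, a rise of 1.51 ± 0.15 (adjusted p = 2.53e-06). PSBW, a small subunit of photosystem II, went from 9.39, 9.35 and 9.34 to 10.99, 11.36 and 11.05, a rise of 1.77 ± 0.15 (adjusted p = 4.27e-07). The dark values of PSBW spanned less than 0.1, far less than the change.

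All 3 genes for LHCB4, a minor antenna protein that links the light-harvesting complex to photosystem II, were measured. LHCB4.1 stood at 11.07, 11.33 and 10.51 in darkness and at 12.22, 12.47 and 12.54 after 24 h, and LHCB4.2 at 10.51, 10.91 and 11.09 and then at 12.39, 12.33 and 12.42. LHCB4.3 stood at 6.78, 6.71 and 7.44 and then at 8.12, 8.10 and 7.59, so that far-red array C lay only just above the highest dark array. The rises were 1.44 ± 0.17, 1.54 ± 0.15 and 0.96 ± 0.19, with adjusted p = 1.21e-05, 2.06e-06 and 0.00279. In all, the 6 photosystem II genes with a probe set, of 29 on the list, were higher, with a median difference of 1.49, and so were both photosystem I genes measured of 18, with a median of 2.08. All 8 were stable, and all 6 of photosystem II stayed called without dark arrays B and C.

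Genes encoded in the plastid genome did not show calls at the same threshold. Of the 69 measured, 0 were called in limma (3 at an unadjusted p under 0.05), beside 11.3% of all probe sets. The median difference was 0.16, with a range from -1.26 (rpl32) to 1.52 (psbA), and 51 differences were above 0. Their median level was 9.24 in darkness and 9.48 after 24 h. The gene for the D1 reaction centre protein, psbA, read 6.78, 6.58 and 8.28 in darkness and 8.59, 8.72 and 8.88 after 24 h. Dark array C lay far above the other dark arrays and close to the far-red ones, and the difference of 1.52 ± 0.53 had an adjusted p of 0.0768. Without dark array C, psbA was called (2.05, adjusted p = 0.0167), together with the photosystem II genes psbE, psbF and psbJ at 0.78, 0.65 and 0.76. With arrays shifted to 1 median 2 of the 69 were called, and without dark arrays B and C together 0 were.

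Chlorophyll synthesis was uneven. Of 11 genes measured, 4 were higher, 0 lower and 7 not called, with a median of 0.55. Over all probe sets 4.48% were higher and 6.77% lower. CHLM, the magnesium protoporphyrin IX methyltransferase, went from 10.36, 10.74 and 10.81 to 11.63, 11.50 and 11.44, a rise of 0.88 ± 0.13 (adjusted p = 0.000159), and HEME1, which acts earlier in the pathway, rose as well (adjusted p = 5.58e-05). Both were stable, whereas the calls of HEME2 and CHLI2 were lost without dark array C. PORB, a light-dependent protochlorophyllide oxidoreductase, read 11.85, 12.10 and 10.73 in darkness and 10.78, 11.19 and 10.48 after 24 h. Its difference of -0.74 ± 0.26 was not called (adjusted p = 0.0754) and became -1.16 (adjusted p = 0.00034) without dark array C, the one dark array that overlapped the far-red group.

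Photorespiration, which recycles the product of the oxygenase reaction of Rubisco, had 4 measured genes of 13 on its list, of which 3 were higher and 0 lower. HPR, the peroxisomal hydroxypyruvate reductase of this cycle, read 9.61, 10.19 and 10.65 in darkness and 11.84, 12.04 and 12.03 after 24 h. The dark arrays spread over about 1 log2 unit and still lay below every far-red array, and the rise was 3.52-fold (1.82 ± 0.22, adjusted p = 1.97e-05). AT1G32470 and AT1G11860 rose by 1.31 ± 0.18 and 0.83 ± 0.18. AT1G80380 differed by 0.42 ± 0.18 and was not called (adjusted p = 0.164). It was called higher without dark array C (0.58, adjusted p = 0.0473) and after the shift to 1 median (0.52, adjusted p = 0.0295).

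**Figure D2:**
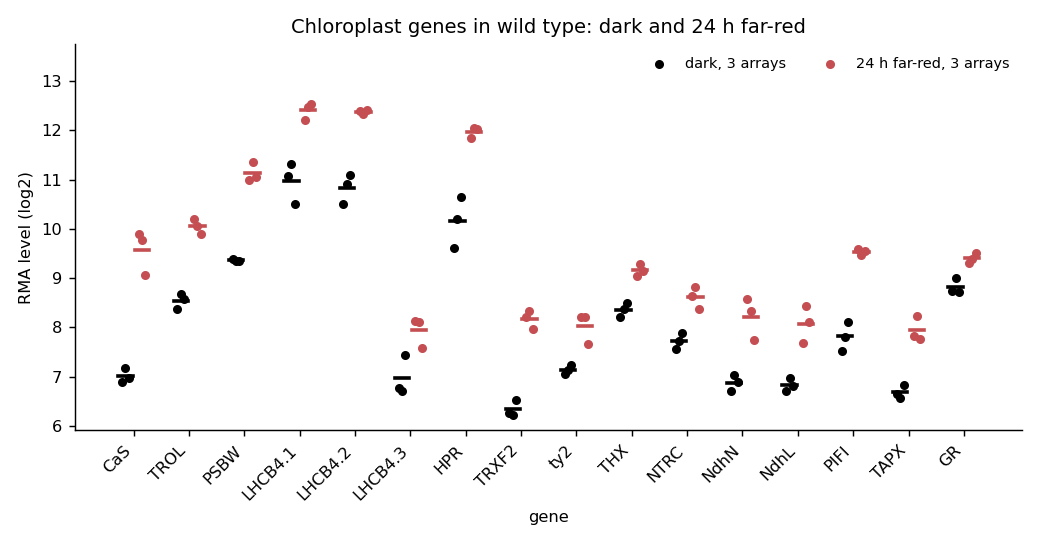
RMA level (log2, vertical axis) of 15 nuclear genes of plastid functions and of HPR (16 genes in all) on the 3 dark arrays (black) and the 3 arrays after 24 h of far-red light (red) of wild type, with the group mean as a line. In each gene every far-red array lies above every dark array. LHCB4.3 comes closest to overlap, with 7.59 against 7.44.

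Several gene families were then gathered by symbol. These families were chosen after values had been seen, and every measured member is counted. Their counts stand beside 4.48% higher and 6.77% lower over all probe sets. Thioredoxins are small redox proteins, and some of them activate plastid enzymes in the light. Of 8 genes for thioredoxins and the linked reductase NTRC, 4 were higher, 0 lower and 4 not called, and the 4 calls were stable. TRXF2, a plastid f-type thioredoxin that activates Calvin cycle enzymes, went from 6.26, 6.23 and 6.52 to 8.21, 8.33 and 7.96, a rise of 3.55-fold (1.83 ± 0.15, adjusted p = 2.52e-07). Smaller rises were those of ty2 (thioredoxin Y2, 0.88 ± 0.15), THX (thioredoxin X, 0.80 ± 0.15) and NTRC (0.89 ± 0.14).

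The chloroplast NDH complex carries electrons around photosystem I. Of 14 genes gathered for it by symbol, 3 were higher, 0 lower and 11 not called. NdhS, 1 of the 11, was called higher without dark array C (0.99, adjusted p = 0.00343) and after the shift to 1 median (0.73, adjusted p = 0.0358). NdhN went from 6.71, 7.04 and 6.90 to 8.58, 8.33 and 7.74 and rose by 1.34 ± 0.20 (adjusted p = 0.000142). NdhL rose by 1.25 ± 0.22 and PIFI, named for the rise of chlorophyll fluorescence after illumination, by 1.72 ± 0.24. Among enzymes that remove reactive oxygen, TAPX, the thylakoid ascorbate peroxidase, went from 6.65, 6.57 and 6.84 to 7.83, 8.23 and 7.77, a rise of 1.26 ± 0.16 (adjusted p = 2.83e-05). GR, a glutathione reductase, rose by 0.59 ± 0.12. SAPX, the stromal ascorbate peroxidase, was lower by -0.53 ± 0.17 with overlapping arrays (adjusted p = 0.0487), and that call was lost after either rescaling.

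Sugar transporters of the SWEET family had 14 measured genes, 3 of them higher and 0 lower, beside 4.48% higher over all probe sets. The family's median difference was 0.05. SWEET17, a vacuolar fructose transporter, went from 6.79, 6.65 and 7.16 to 7.97, 8.01 and 7.83, a rise of 1.07 ± 0.17 (adjusted p = 0.00037). SWEET2 rose by 0.95 ± 0.20 and SWEET1 by 0.97 ± 0.23, and the SWEET1 call was lost without dark arrays B and C together (0.64, adjusted p = 0.174). AOR, an enzyme that reduces reactive carbonyls, rose by 1.73 ± 0.17, and THI2.2, a thionin, by 2.64 ± 0.33. The THI2.2 arrays read 4.68, 4.66 and 5.08 in darkness and 7.82, 7.99 and 6.54 after 24 h. Its level in the 1 h group was 6.18 ± 0.20.

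Calls among families of cell wall genes were mostly in the lower direction. GH9 enzymes are endo-1,4-beta-glucanases that cut wall glucans. Of 15 measured, 5 were lower, 0 higher and 10 not called, with a median of -0.30, and 3 of the 5 calls were stable. GH9B13 read 9.39, 9.32 and 9.03 in darkness and 8.03, 7.28 and 6.18 after 24 h. The far-red arrays spread over nearly 2 log2 units and all lay below the dark ones, with a difference of -2.08 ± 0.34 (4.24-fold lower, adjusted p = 0.00036). GH9C2 differed by -1.45 ± 0.25 and GH9C3 by -1.33 ± 0.17, the latter going from 4.86, 4.69 and 4.68 to 3.26, 3.62 and 3.37. These levels lie around and under the 95th percentile of the controls, and the level in the 1 h group was 3.67 ± 0.08.

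Pectin methylesterases remove methyl groups from pectin and so change wall stiffness. Of 5 measured, 3 were lower and 0 higher. After the shift to 1 median 2 were lower and 1 higher, PMEPCRF (0.62, adjusted p = 0.0445). PME61 went from 7.67, 7.04 and 7.08 to 6.06, 6.35 and 4.77, a difference of -1.54 ± 0.32 (adjusted p = 0.00378). ATPMEPCRB and ATPMEPCRD differed by -0.90 ± 0.21 and -0.52 ± 0.13, the second without a stable call. The levels of ATPMEPCRB, with means of 4.72 and 3.82, lie under the 95th percentile of the controls, so the size of its difference is not a measured fold. Of 30 genes annotated as xyloglucan enzymes or expansins, 6 were lower and 0 higher, beside 6.77% lower and 4.48% higher over all probe sets. The median of the 30 was -0.15, beside -0.12 over all probe sets. EXPA9, XTH19 and XTH33 were among the 6 lower. The others were EXPB1 (-1.07 ± 0.29), EXLA3 and XEG113, and these 3 calls were lost without dark arrays B and C together. EXGT-A3, of the same group, was called higher after the shift to 1 median (0.55, adjusted p = 0.0117) and without dark array C (0.57, adjusted p = 0.0113). EXPA8, another alpha-expansin, differed by 0.07 ± 0.16 (adjusted p = 0.83). CSLC04, a synthase of the xyloglucan backbone, differed by -0.95 ± 0.21. Of 7 cellulose synthase-like genes it was the 1 called lower, and CSLA03 was the 1 called higher (0.68 ± 0.16). The median of that family was -0.04. TBL39, of the family that acetylates wall polymers, differed by -1.07 ± 0.15. TBL39 was 1 of 3 called lower, with 0 higher, of 22 TBL genes, beside 6.77% lower over all probe sets.

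Tubulins, the subunits of microtubules, did not move together. Of 7 alpha- and beta-tubulin genes, TUB1 and TUB6 were lower and TUA1 was higher. TUA1 read 8.61, 8.33 and 8.85 in darkness and 9.25, 9.23 and 9.16 after 24 h, a rise of 0.62 ± 0.13 (adjusted p = 0.00502). TUB6 read 10.76, 10.84 and 11.05 and then 10.53, 10.55 and 10.23, a difference of -0.45 ± 0.12 whose call was lost after the shift to 1 median and without dark array C. The other 4 differed by -0.06 to -0.35 and were not called. Of these TUA6 was called lower without dark array C (-0.67, adjusted p = 0.00781) and without dark arrays B and C (-0.84, adjusted p = 0.0103). TRM28, of a family that recruits proteins to the cortical microtubules, differed by -1.03 ± 0.24, and 3 of 15 TRM genes were lower and 0 higher, beside 6.77% lower over all probe sets. TRM28 was the 1 stable call, TRM18 and TRM21 lost theirs without dark array C, and without dark arrays B and C all 3 were lost (adjusted p = 0.084 for TRM28).

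**Figure D3:**
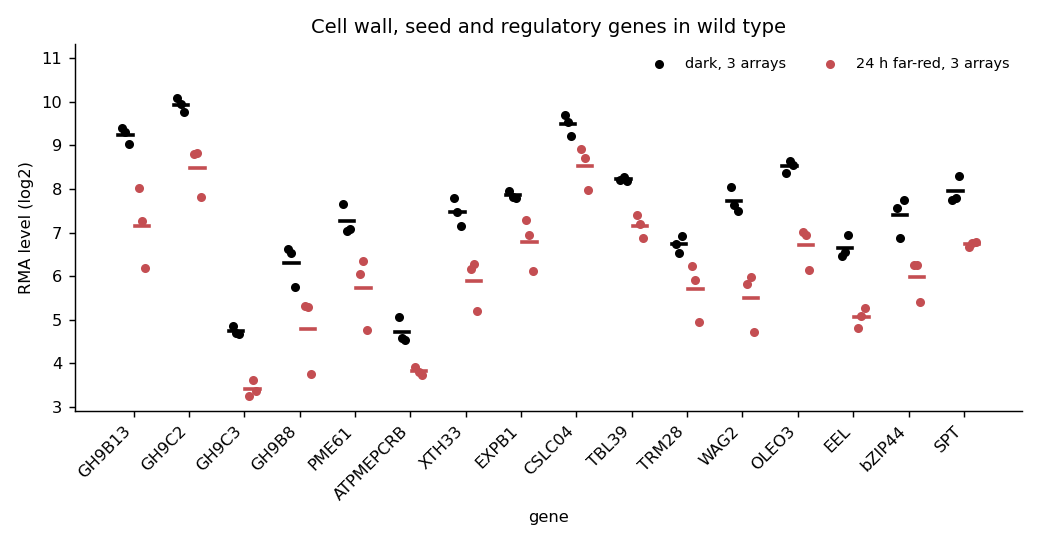
RMA level (log2, vertical axis) of 16 genes called lower after 24 h, on the 3 dark arrays (black) and the 3 arrays after 24 h of far-red light (red) of wild type, with the group mean as a line. In each gene every far-red array lies below every dark array, and the far-red array C, the right-hand red point, is often the lowest.

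OLEO3, a coat protein of seed oil bodies and the 1 measured gene of 15 on the seed storage list, read 8.38, 8.64 and 8.55 in darkness and 7.02, 6.96 and 6.14 after 24 h, a difference of -1.82 ± 0.22 (3.52-fold lower, adjusted p = 1.97e-05). EEL, a bZIP factor that acts on late embryogenesis genes, differed by -1.59 ± 0.18, from 6.46, 6.55 and 6.94 to 4.82, 5.09 and 5.27. WAG2, a kinase that acts on auxin efflux carriers, went from 8.04, 7.64 and 7.50 to 5.83, 5.99 and 4.72, a difference of -2.22 ± 0.29 (adjusted p = 3.31e-05). Of 7 Aux/IAA genes, which encode repressors of auxin response, IAA20 was lower (-0.78 ± 0.17) and 0 were higher, beside 6.77% lower over all probe sets. Without dark arrays B and C its call was lost (-0.45, adjusted p = 0.236). The 5 genes of the auxin list had 0 calls in limma, 0 at an unadjusted p under 0.05, and a median of -0.34.

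SPT, a basic helix-loop-helix factor known in seed dormancy and in the control of organ growth, went from 7.74, 7.79 and 8.31 to 6.67, 6.77 and 6.78, a difference of -1.21 ± 0.20 (adjusted p = 0.000465). It had no overlap, and bZIP44 (-1.42 ± 0.24) had none either. CP1, a cysteine proteinase, differed by -1.79 ± 0.18. IQ-domain genes, whose products bind calmodulin, went both ways, with 2 higher and 5 lower of 15. Over all probe sets 4.48% were higher and 6.77% lower. IQD24 rose from levels under the 95th percentile of the controls (fitted difference 1.27 ± 0.26, at least 1.63-fold higher). IQD26 differed by -1.44 ± 0.16, down to a 24 h mean of 4.75, just under that percentile. These were the 2 stable calls of that family, and after the shift to 1 median it had 2 calls in each direction, and without dark arrays B and C 1 in each.

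Of 47 UDP-glycosyltransferase genes 3 were higher and 8 lower, with a median of -0.21, beside 4.48% higher and 6.77% lower over all probe sets. This excess of falls shrank under both rescalings. The counts were 4 higher and 5 lower after the shift to 1 median, and 5 higher and 6 lower after quantile normalization. UGT71B1, not called in the main fit, was called higher after the shift (0.88). UGT88A1 rose by 0.98 ± 0.15, and UGT71C1 and UGT72E2, a glucosyltransferase of lignin precursors, differed by -1.26 ± 0.23 and -1.06 ± 0.18. Of 13 glutathione transferase genes 3 were higher and 1 lower: GSTU18 went from 6.75, 6.77 and 7.35 to 8.35, 8.60 and 8.46, a rise of 1.51 ± 0.16 (adjusted p = 4.41e-06), while GSTU25 differed by -0.95 ± 0.20, with means of 4.59 and 3.64 that both lie under the 95th percentile of the controls. Of 24 cytochrome P450 genes 0 were higher and 1 lower, beside the same shares over all probe sets. That 1 call was lost after either rescaling.

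**Figure D4:**
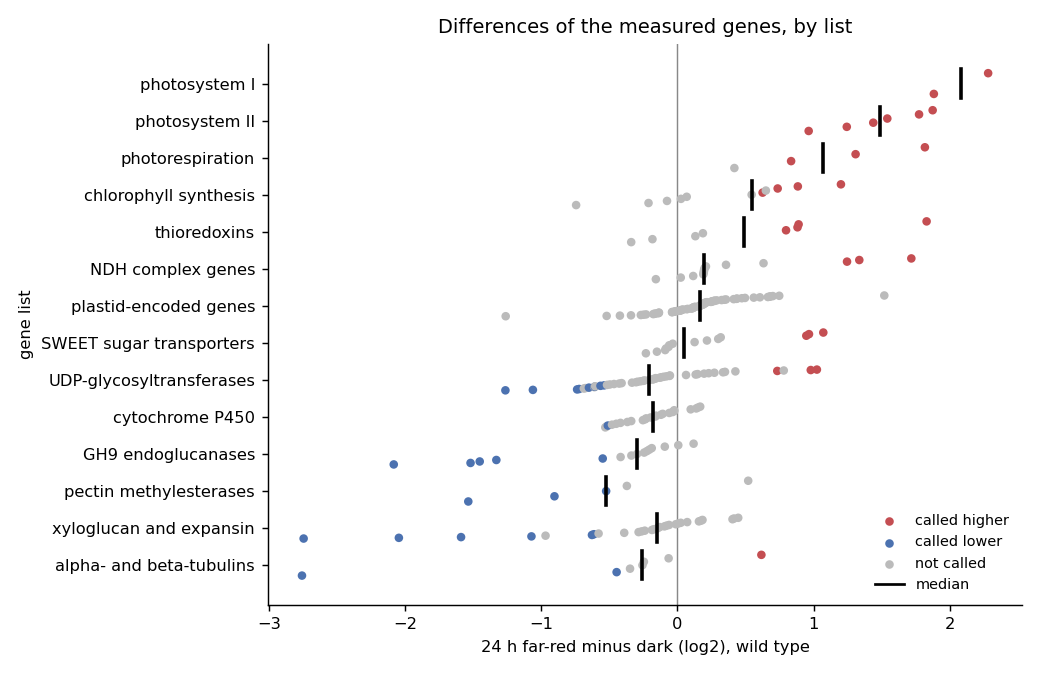
Difference between 24 h far-red light and darkness in wild type (log2, horizontal axis) for each measured gene of 14 lists, red where called higher, blue where called lower and grey where not called, with the median of the list as a black line. Medians run from 2.08 for photosystem I to -0.52 for the pectin methylesterases, and the 69 plastid-encoded genes lie around 0.16 with no call.

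Root hair expansins EXPA7 and EXPA18, the 2 root markers with a probe set, stayed below the 95th percentile of the controls in both groups, at means of 3.73 and 3.47 for EXPA7 and of 4.01 and 3.72 for EXPA18. Among the stable rises, far-red array C was the lowest of its group for 371 of 690, and among the stable falls for 315 of 526. The rises were therefore often smallest and the falls often largest on that array. Leaving it out gave 1676 calls, 883 higher and 793 lower.

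The same contrast in pif4pif5 uses 6 other arrays. It gave 2605 calls, 11.5% of the probe sets, with 4.24% higher and 7.21% lower. This balance depended on the scaling: 1397 were higher and 1432 lower after quantile normalization, and 1791 higher and 1014 lower after the shift to 1 median, which moved the median difference of all probe sets from -0.04 to 0.11. Called in both genotypes in the same direction were 1573 probe sets, which was 61.5% of the wild-type calls and 60.4% of the mutant calls. For rises this was 73.3% of the wild-type calls and 77.4% of the mutant calls, and for falls 53.7% and 50.4%. Of the 128 wild-type calls of at least 4-fold, 127 were called in the mutant in the same direction. Of the 1216 stable calls, 1036 (85.2%) were, and 1207 had the same sign.

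**Figure D5:**
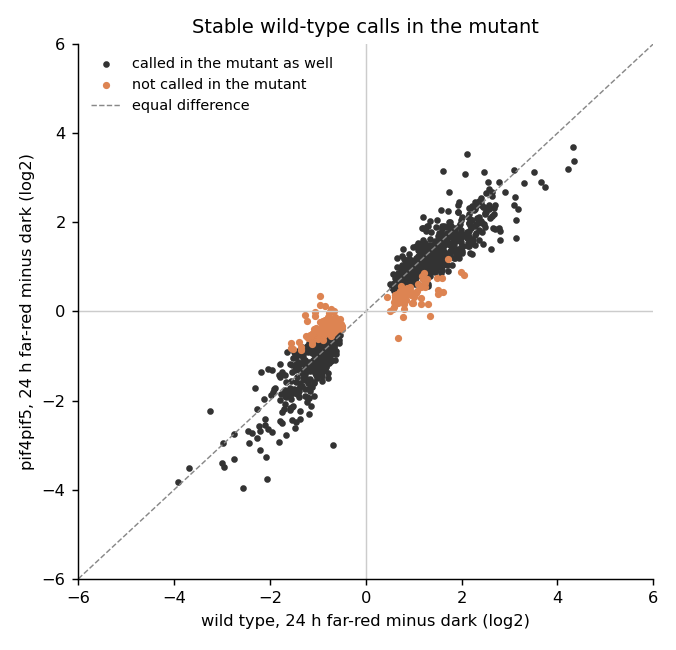
Difference between 24 h far-red light and darkness (log2) in wild type (horizontal axis) and in pif4pif5 (vertical axis) for the 1216 probe sets with a stable call in wild type, one point each, with a dashed line where both are equal. The 1036 dark points were also called in the mutant in the same direction, and the orange points were not.

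Family counts in the mutant can be set beside those in wild type. All 4 thioredoxin calls recurred there, where TY1 was in addition called lower (-0.47 ± 0.14, beside -0.34 ± 0.14 and no call in wild type), and THX rose by 0.81 ± 0.15 beside 0.80 ± 0.15. In the GH9 family the mutant had 6 genes lower and 0 higher, with GH9B13 at -3.26 ± 0.34 beside -2.08 ± 0.34. LHCB4.3 was at 0.19 ± 0.19 in the mutant beside 0.96 ± 0.19 and UGT72E2 at -0.02 ± 0.18 beside -1.06 ± 0.18. Neither difference between genotypes passed the test of the interaction, which for UGT72E2 gave -1.04 with a 95% interval from -1.56 to -0.52 and for OLEO3 1.12 with one from 0.46 to 1.77 (adjusted p = 0.84 for both).

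The response differed between the genotypes for 3 probe sets, 0.0132% of those tested, beside 1338 (5.88%) at an unadjusted p under 0.05. The 95% interval of an interaction, not adjusted for the number of probe sets, reached 0.52 to either side at the median. Genotype effects within that interval were not resolved with 3 arrays a group. Effects well beyond it could also go uncalled after adjustment, such as 1.38 ± 0.24 for AT4G11610 (adjusted p = 0.127, interaction test in limma). PIF4 and PIF5 had no probe set assigned, so the mutant label was not checked on the mutated genes.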

How the data were processed

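RNA of whole seedlings was amplified, labelled with biotin and hybridised to 1-colour Affymetrix arrays, per the labels. The deposited values are log2 intensities that the authors obtained by RMA, per the submitters' processing notes, and its version is not given in the sources used here. They were used as deposited. Genes came from the platform's probe table and symbols from a reference table of assembly TAIR10.1, where 13436 of 13513 single-gene probe sets matched. The linear model, with a mean for each of the 6 groups, took in all 18 arrays and was run in limma 3.58.1 (R 4.3.3, statmod 1.5.0), with 12 residual and 5.91 prior degrees of freedom. Errors of differences are standard errors with n = 3 arrays per group, and p-values were adjusted by Benjamini-Hochberg over 22746 probe sets. An exact permutation test of 3 arrays against 3 cannot go below 0.1, so none was used. The fit was also run on simulated arrays, whose noise was independent and equally wide on every array. Dark arrays B and C depart from that setting, so the simulation does not vouch for the fit to them.

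Gene lists, comparisons and members were chosen with earlier results of these data known. A gene with several probe sets was represented by the brightest. Named were up to 15 rises and 15 falls by size among single-gene calls that kept their call under both rescalings and without dark array C, and up to 4 calls per list and direction. The text gives a selection of these. Genes named through the symbol families, AOR, CP1, EEL, bZIP44, SPT, GR, CSLC04 and OLEO3's interaction were singled out after their values were seen. Same-letter arrays of darkness and 24 h correlated at -0.03, 0.14 and 0.21 in wild type, in their deviations from the group means. In pif4pif5 they correlated at 0.03, 0.23 and 0.32. Between genotypes they correlated at 0.34, 0.05 and 0.36 in darkness and at 0.02, 0.13 and 0.35 after 24 h. Different-letter arrays of the same groups ran from -0.41 to 0.31. The labels state no pairing, so the letters were not treated as pairs in the main fit. Alternatives were quantile normalization, a shift to 1 median, only the groups compared, limma-trend, array weights, dim probe sets left out, single-gene probe sets only, a 2-fold minimum, a replicate block and each array left out. The number of arrays limits the precision.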

Additional observations from a re-analysis of the deposited data

Results flagged for a closer look

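The 24 h response differed between wild type and pif4pif5 by the interaction test in limma for 3 probe sets. AT5G02580 differed by -0.22 between 24 h of far-red light and darkness in wild type and by -1.67 in the mutant, an interaction of 1.45 ± 0.21 (95% interval 1.00 to 1.90, adjusted p = 0.0293). The call was lost with only the groups compared (adjusted p = 0.237), with the replicate block (0.0515) and in 8 of 12 fits without 1 array, over which the adjusted p ran from 0.00384 to 0.142. Its wild-type arrays read 7.90, 7.60 and 8.17 in darkness and 7.60, 7.78 and 7.63 after 24 h, with overlap, and the mutant went from 7.30 ± 0.05 (SD) to 5.63 ± 0.20.

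The probe set 245325_at, with no single gene assigned, read 12.3, 12.4 and 12.4 in wild-type darkness and 11.8, 11.6 and 11.6 after 24 h, and went from 12.1 to 9.07 in the mutant. Its interaction was 2.31 ± 0.18 (adjusted p = 5.27e-06). The probe set 265724_at, likewise without a single gene, rose from 3.44 to 5.55 in wild type and from 3.53 to 7.06 in the mutant, an interaction of -1.42 ± 0.22 (adjusted p = 0.0343). Both dark means lie under 4.78, the 95th percentile of the bacterial controls, so both rises are lower bounds and the size of their difference is not measured. Its call was lost under several alternatives, with an adjusted p of 0.0878 after quantile normalization and 0.163 without both dark arrays B and C. No outlier test was run on groups of 3 arrays.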

How the results depend on the processing

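The wild-type count of 2559 calls (39.8% higher) became 756 with only the groups compared, 1531 with array weights, 1220 over single-gene probe sets, 787 with a 2-fold minimum and 1684 without dark arrays B and C, and it ran from 1676 to 3814 with 1 array left out. The share of higher calls was 53.2% after quantile normalization and 63.6% after the shift to 1 median. The median difference over all probe sets was -0.03 and -0.02 after these rescalings. The share was 65.1%, 57.8% and 64.0% with only the groups compared, with array weights and with a 2-fold minimum. It was 23.9%, 33.8% and 59.7% without dark array A, B or C. Without 24 h array A, B or C it was 37.1%, 43.0% and 52.7%. With the replicate block there were 3051 calls, and the labels state no pairing by letter. The mutant count of 2605 became 4607 with array weights, 1181 over single-gene probe sets and 869 with a 2-fold minimum, and ran from 1543 to 2284 with 1 array left out. The 3 interaction calls became 1 with only the groups compared, 1 over single-gene probe sets, 1 with the replicate block and 5 without dark arrays B and C, and ran from 1 to 118 with 1 array left out, the 118 being without wild-type dark array A. Of 85 genes and probe sets named by rule and called in wild type, 57 kept their call under every alternative run, and the other 28 lost it under at least 1. In no case did a called direction reverse. GI, PRK, HEME2, SAPX and CYP71B37 lost it most often. The planned promoter motif counts were not run, because promoter sequences were not used here. The cause of these changes was not tested.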
